A study of Rattus norvegicus with 22 samples.

Results

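The genes described here are 7 genes of antioxidant defence and glutathione conjugation in rat liver: Cat, Sod3, Nfe2l2, Gsta4, Gstm2, Gstm7 and Gstt1. They were taken by symbol from the table of male offspring, where each has 1 row among 1365. The livers came from Wistar rats at postnatal day 110 whose mothers had been given either a control diet (6 male offspring) or an obesogenic diet (maternal obesity, MO; 5 male offspring). The labels name the mothers' diet, and they give neither the offspring's own diet nor their litters, so errors measure the spread between these animals. A second table, of 6 control and 5 MO female offspring, holds 69 rows and 0 of the 7 genes, so their levels in females are not analysed here.

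Cells remove superoxide with superoxide dismutases, which turn it into hydrogen peroxide, and break the peroxide down with catalase and peroxidases. Glutathione S-transferases join reactive and foreign compounds to glutathione so that they can be excreted, and the liver is their main site. NRF2, the product of Nfe2l2, is the transcription factor that is held down by KEAP1 at rest and, once released, drives many of these genes through antioxidant response elements in their promoters.

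All 7 genes were lower in the livers of MO males. The mean level in RPM, the reads of a gene for a fixed total of reads per library, was lower by 31.4% for Nfe2l2 to 42.9% for Gstm2. In log2(RPM + 1) the changes ran from -0.53 to -0.84, with a median of -0.65. The table decides how this count can be read. The authors listed only rows that differed, with no p-value of 0.05 or more in the authors' deposited table, and 1317 of the 1365 rows are lower in MO. By limma at an adjusted p under 0.05, 7 of 7 genes passed as lower, and so did 96.5% of all rows, so that passing gives no support to a difference. The median change of all rows was -0.58, and 5 of the 7 genes lay below it, where 50% of rows lie. These are bulk livers, in which fewer cells of a type and less RNA per cell cannot be told apart.

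**Figure D1:**
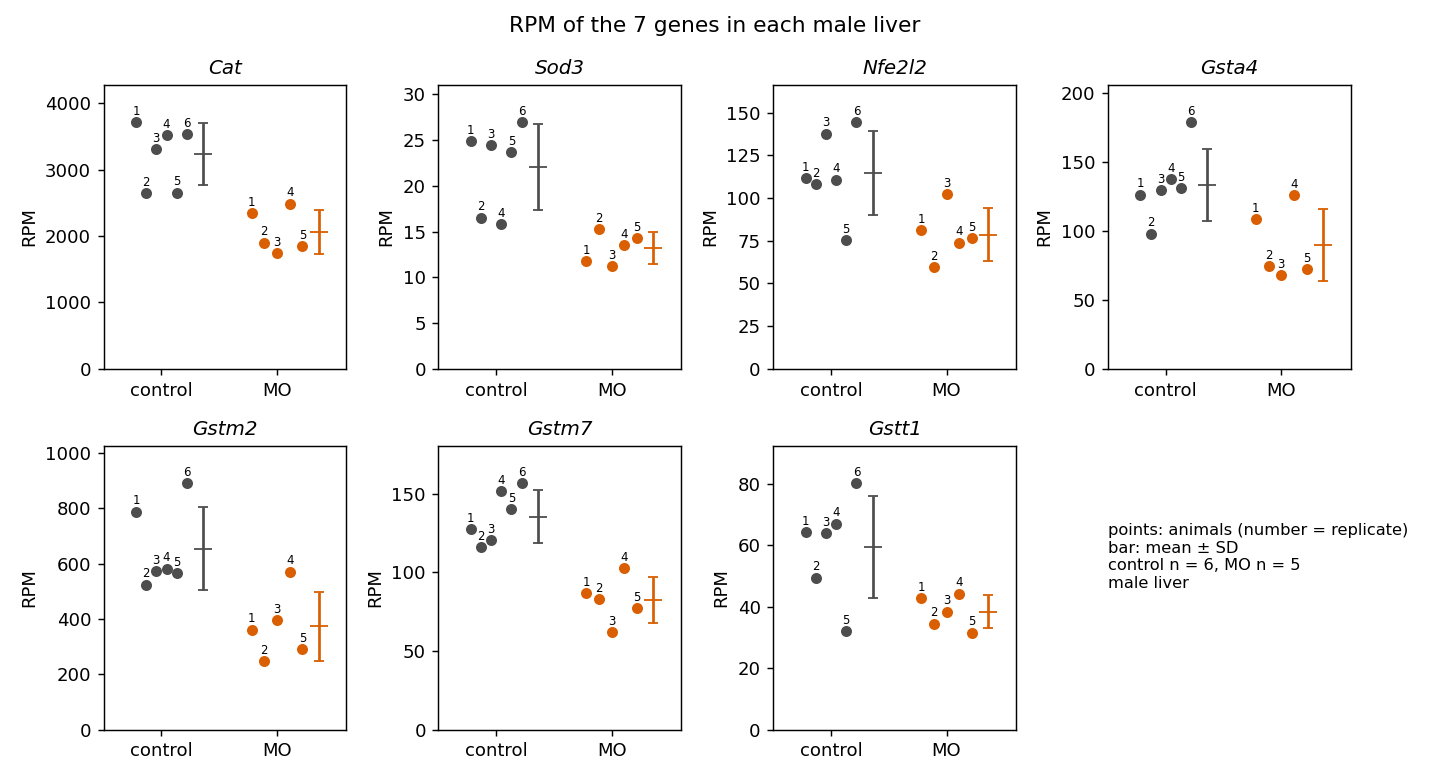
RPM (vertical axes, from 0) of each of the 7 genes in each male liver, with the replicate number at each point and the mean ± SD at the side (6 control, 5 MO animals). For Cat, Sod3 and Gstm7 all 5 MO animals lie below all 6 controls, and for the other 4 genes the groups overlap.

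Every library showed the shift shared by the table. The median log2(RPM + 1) over the listed rows was 4.29 to 4.92 in control and 3.72 to 4.06 in MO libraries, and the listed rows took 9.69% to 15.3% and 6.58% to 8.69% of all reads. Depth, read from the size of 1 read in the values, was 7890000 to 11170000 reads in control and 10530000 to 11590000 in MO libraries. Control males 1 and 5 stood apart in the noncoding RNA Rmrp, with 1.2 and 1.52 RPM, against 36.9 to 51.2 RPM in the other 4 controls and 1.71 to 3.11 RPM in MO males. Values against each set of controls are therefore given below, and the part of this split in the results was not tested. Of 14 hepatocyte markers, 1 has a row, Cps1 of the urea cycle, at 1265 ± 362 RPM (SD, n = 6) in control and 857 ± 51.5 RPM (SD, n = 5) in MO males. The rest were not analysed here.

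Nfe2l2, on chromosome 3, encodes the regulator NRF2. The 6 controls ranged from 75.3 through a median of 111.2 to 144.5 RPM. The MO animals were at 81.2, 59.5, 102.2, 73.9 and 76.4 RPM. Control 5 was the lowest control, 3 of the 5 MO animals lay inside the control range, and 5 of 6 controls lay above the highest MO animal. Controls averaged 114.6 ± 24.7 RPM (SD, n = 6) and MO animals 78.7 ± 15.5 RPM (SD, n = 5), for which limma gave a log2 change of -0.53 (SE 0.19, adjusted p = 0.013). This was the smallest change of the 7 genes, and 70.1% of the rows of the table were more negative. Against control males 2, 3, 4 and 6 it was -0.67 ± 0.21 (SE), and against control males 1 and 5 alone -0.24 ± 0.24 (SE; adjusted p by limma = 0.34).

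Promoter sequences, 250 bases before to 50 after the gene start, were taken from RefSeq (build GRCr8, other than the rn5 named for the deposited values) and matched 5 of the 7 genes: Cat, Nfe2l2, Gsta4, Gstm2 and Gstm7. Both strands were searched for the core letters of the antioxidant response element, TGACNNNGC, which overlapped no other motif searched in these promoters. The windows of Nfe2l2 and Gstm7 held 1 match each and those of Cat, Gsta4 and Gstm2 held 0. Of all 27457 promoters 12.2% held a match, as did 13.4% of the 986 belonging to genes of the male table. The TATA box letters TATAAA (14.3% of all promoters), the E-box CACGTG (6.65%) and the STAT5 site letters TTCNNNGAA (8.68%) had 0 matches in the 5 windows. The 2 windows with a match are shown with that of Gstm2, the gene with the largest change and a close relative of Gstm7. Capitals mark the match, which begins 39 bases into the gene in Nfe2l2 and 14 bases before the start in Gstm7.
Nfe2l2 (chr3:81028950-81029249, minus strand): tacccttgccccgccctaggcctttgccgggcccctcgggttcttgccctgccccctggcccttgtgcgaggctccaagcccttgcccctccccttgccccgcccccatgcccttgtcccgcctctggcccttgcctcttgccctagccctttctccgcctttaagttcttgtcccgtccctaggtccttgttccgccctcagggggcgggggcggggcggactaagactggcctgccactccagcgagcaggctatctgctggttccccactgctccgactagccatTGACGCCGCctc
Gstm7 (chr2:198260270-198260569, minus strand): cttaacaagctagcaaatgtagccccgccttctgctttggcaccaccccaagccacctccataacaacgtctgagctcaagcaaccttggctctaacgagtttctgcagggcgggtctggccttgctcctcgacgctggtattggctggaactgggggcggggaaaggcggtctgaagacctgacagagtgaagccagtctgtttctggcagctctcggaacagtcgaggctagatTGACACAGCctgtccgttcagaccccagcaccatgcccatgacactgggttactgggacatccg
Gstm2 (chr2:198316868-198317167, minus strand): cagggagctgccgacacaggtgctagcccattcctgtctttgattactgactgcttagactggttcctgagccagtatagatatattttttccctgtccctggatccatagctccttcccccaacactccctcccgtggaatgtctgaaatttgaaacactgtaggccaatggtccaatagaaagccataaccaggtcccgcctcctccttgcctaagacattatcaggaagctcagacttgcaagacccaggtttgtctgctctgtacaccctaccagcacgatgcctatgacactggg
A match of these letters is a description and no evidence of binding.

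Cat, on chromosome 3, encodes catalase, the peroxisomal enzyme that splits hydrogen peroxide into water and oxygen. The 6 controls ranged from 2642 through a median of 3416 to 3717 RPM. The 5 MO males stood at 2345, 1900, 1739, 2488 and 1843 RPM. All 5 MO animals lay below all 6 controls, although the highest of them, MO male 4, was close to controls 2 and 5. By limma the log2 change was -0.65 (SE 0.17, adjusted p = 0.0055), a level of catalase RNA lower by 36.1%. The change was much the same against either set of controls, with -0.66 ± 0.21 (SE) against control males 2, 3, 4 and 6 and -0.62 ± 0.23 (SE) against control males 1 and 5.

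Sod3, on chromosome 14, encodes the superoxide dismutase that is secreted and works outside cells. It rested on the fewest reads of the 7 genes, 125 to 265 per library. The 6 controls ranged from 15.9 through a median of 24.1 to 27 RPM. In MO males it was 11.8, 15.3, 11.2, 13.5 and 14.3 RPM. All 5 MO animals again lay below all 6 controls, but the controls split, with controls 2 and 4 at 16.5 and 15.9 RPM and the other 4 at 23.7 to 27 RPM. By limma the log2 change was -0.68 (SE 0.18, adjusted p = 0.0048), and with a level 40.1% lower it was second to Gstm2 on the RPM scale. Against control males 1 and 5 it was -0.84 ± 0.20 (SE), and against the other 4 controls -0.60 ± 0.21 (SE).

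Complete separation of the groups was found for 3 of the 7 genes, Cat, Sod3 and Gstm7. Among all rows, 29.9% had all 5 MO animals below all 6 controls, so that 3 of 7 is a share near that of the listed rows in general.

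The 4 transferases belong to 3 classes: Gsta4 to alpha, Gstm2 and Gstm7 to mu and Gstt1 to theta. Gsta4, on chromosome 8, is known for conjugating 4-hydroxynonenal, a product of lipid peroxidation. Its controls ranged from 98.2 through a median of 130.4 to 179.1 RPM. Values in MO males were 108.4, 74.5, 68.3, 125.9 and 72.2 RPM. MO males 1 and 4 lay inside the control range and the other 3 below it. By limma the log2 change was -0.59 (SE 0.20, adjusted p = 0.011), and against control males 1 and 5 alone it was -0.56 ± 0.25 (SE; adjusted p by limma = 0.074). Against the other 4 controls it was -0.60 ± 0.24 (SE).

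Gstm2, on chromosome 2, had the largest change of the 7 genes. The 6 controls ranged from 524.3 through a median of 577.4 to 892.7 RPM, with controls 1 and 6 well above the other 4. MO animals 1 to 5 were at 362.0, 248.8, 396.3, 571.5 and 290.5 RPM. MO male 4 lay within the controls, and the other 4 below every control. Controls averaged 654.5 ± 149.2 RPM (SD, n = 6) and MO animals 373.8 ± 124.8 RPM (SD, n = 5). By limma the log2 change was -0.84 (SE 0.21, adjusted p = 0.0042), and 11.3% of the rows of the table were more negative. It was -0.90 ± 0.28 (SE) against control males 1 and 5 and -0.81 ± 0.24 (SE) against the other 4.

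Gstm7, also a mu-class gene on chromosome 2, ranged in controls from 116.2 through a median of 133.8 to 157.0 RPM. The MO livers were at 86.9, 83.0, 61.9, 102.5 and 77.0 RPM. All 5 lay below all 6 controls, and the controls varied least of the 7 genes, with a coefficient of variation of 12.4%. By limma the log2 change was -0.72 (SE 0.17, adjusted p = 0.0035), and it was -0.71 ± 0.22 (SE) against control males 1 and 5 and -0.73 ± 0.21 (SE) against the other 4.

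Gstt1, on chromosome 20, encodes the theta-class enzyme that acts on small halogenated compounds. The 6 controls ranged from 32.0 through a median of 64.1 to 80.3 RPM. MO males 1 to 5 had 42.9, 34.5, 38.4, 44.3 and 31.6 RPM. Control 5, at 32.0 RPM, lay below 4 of the 5 MO animals, while the other 5 controls, at 49.5 RPM or more, lay above every MO animal. The controls varied more than for any other of the 7 genes (coefficient of variation 28.0%) and the MO animals less than those of most (14.1%). By limma the log2 change was -0.58 (SE 0.20, adjusted p = 0.012). It was -0.74 ± 0.21 (SE) against control males 2, 3, 4 and 6 and -0.25 ± 0.26 (SE; adjusted p by limma = 0.35) against control males 1 and 5, a set that holds the low control 5.

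**Figure D2:**
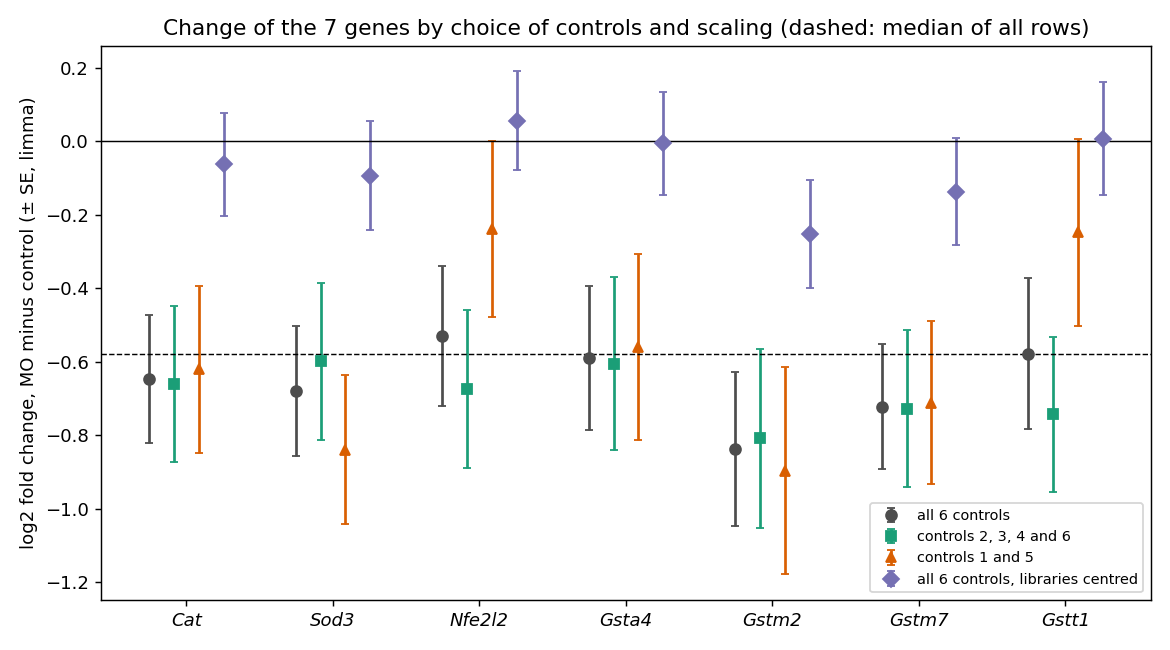
Log2 fold change of MO against control males (vertical axis, limma estimate ± SE) for each of the 7 genes, with all 6 controls, with control males 2, 3, 4 and 6, with control males 1 and 5, and after each library was centred on its median. Nfe2l2 and Gstt1 come closer to 0 against control males 1 and 5, and after centring all 7 genes lie between -0.25 and 0.06.

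With control males 1 and 5 as the only controls, 4 of the 7 genes passed as lower (Cat, Sod3, Gstm2 and Gstm7), beside 36.1% of all rows. With the other 4 controls 7 of 7 passed, beside 94.1% of all rows.

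The mu-class genes lie together in the rat genome. In the GRCr8 annotation 9 protein-coding Gstm genes stand in a run of 11 genes from Gstm5 to Gstm4, and 3 of them, Gstm7, Gstm6 and Gstm2 in that order, have a row in the male table. Gstm6 was at 2.33 ± 0.79 RPM (SD, n = 6) in control and 0.85 ± 0.23 RPM (SD, n = 5) in MO males. The log2 change of Gstm6 was -0.82 ± 0.18 (SE), with all 5 MO animals below every control, as in 29.9% of all rows. At so low a level the log2(RPM + 1) scale understates the change. The other 6 genes of the run were not analysed here.

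The values of Gstm2 and Gstm7 are not independent of each other. Divided by the worth of 1 read in each library, the values of Sod3, Nfe2l2, Gsta4 and Gstt1 were whole numbers of reads in 11 of 11 libraries, within 0.05 of a read. Those of Gstm2 and Gstm7 were whole in 1 of 11 libraries each. Control male 3, for example, had 5130.59 reads of Gstm2 and 1077.41 of Gstm7, which add to 6208. In 9 of 11 libraries the reads of both genes added to a whole number within 0.004 of a read. The exceptions were control male 4 (0.051 from whole) and MO male 5 (0.412). In 8 of those 9 libraries, then, reads had been divided between both rows of the deposited table, and in control male 5 both genes had whole reads. The division followed a rule not given in the sources used here. How many were divided cannot be read from the fractions, and the level of each gene alone is uncertain by that amount. For Cat the values carry too few digits for this check. Of 1087 rows at middle levels (mean over 5 RPM, rows with the highest values left out), 889 (81.8%) had whole reads in every library. In 105 of the 1087 rows reads were fractional in at least 10 libraries, so such fractions were not particular to Gstm2 and Gstm7.

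**Figure D3:**
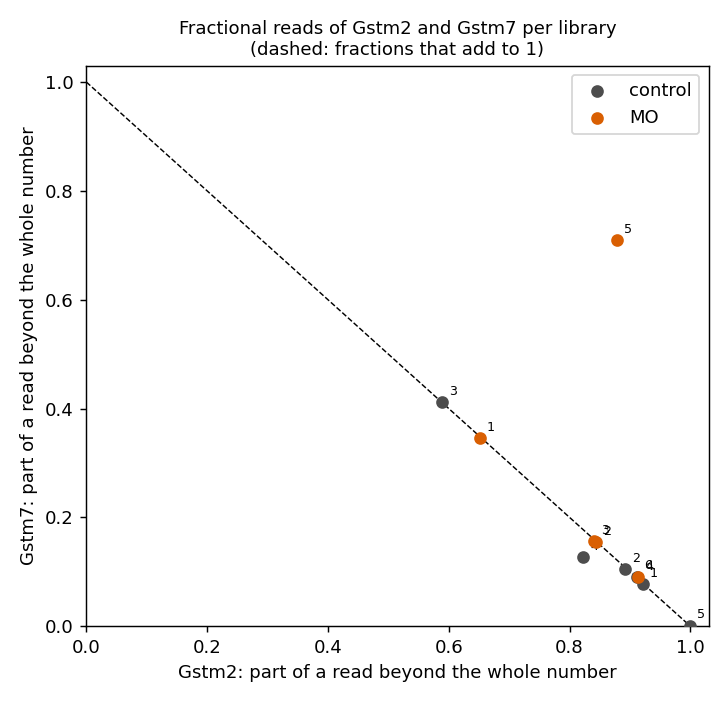
Part of a read beyond the whole number in Gstm2 (horizontal axis) and Gstm7 (vertical axis) in each of the 11 male libraries, with replicate numbers. In 9 libraries the points lie on the dashed line, where the fractions add to 1, and MO male 5 lies far from it.

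The sum of both genes does not depend on how reads were divided between them, and an alternative with the sum was added after these fractions had been seen. It was 789.9 ± 158.2 RPM (SD, n = 6) in control and 456.1 ± 133.1 RPM (SD, n = 5) in MO males. On the log2 scale the sum changed by -0.81 (exact permutation p = 0.0087, two-sided, unadjusted), with 4 of 5 MO animals below every control. Both rows had been listed because they differed on this contrast, so this p-value gives no support to a difference. By exact permutation 1283 of the 1365 rows passed as lower at an adjusted p under 0.05. The share of Gstm7 in the sum was 13.9% to 20.7% in control and 13.5% to 25% in MO males, ranges that overlap.

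Set against the other listed rows, Gstm2 and Gstm7 lay towards the negative end, with 11.3% and 20.7% of rows more negative. For the other genes this share ran from 26.7% (Sod3) to 70.1% (Nfe2l2). Each library was centred on its own median, which takes out a shift of -0.58 between the groups. The change was then -0.25 ± 0.15 for Gstm2, -0.14 ± 0.15 for Gstm7, -0.09 ± 0.15 for Sod3 and -0.06 ± 0.14 for Cat (SE). Gsta4 was at -0.01 ± 0.14, Gstt1 at 0.01 ± 0.15 and Nfe2l2 at 0.06 ± 0.14 (SE), so Gstt1 and Nfe2l2 no longer had a negative sign. By limma 0 of the 7 passed after centring (adjusted p = 0.88 for Gstm2 and 0.997 for the other 6; 0 at an unadjusted p under 0.05), beside 1.76% of rows that passed as lower. After centring the ranges of control and MO animals overlapped for all 7 genes, and 0.952% of rows had all 5 MO animals below all 6 controls. Centring on listed rows removes what these rows share, and the origin of that shift was not tested.

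**Figure D4:**
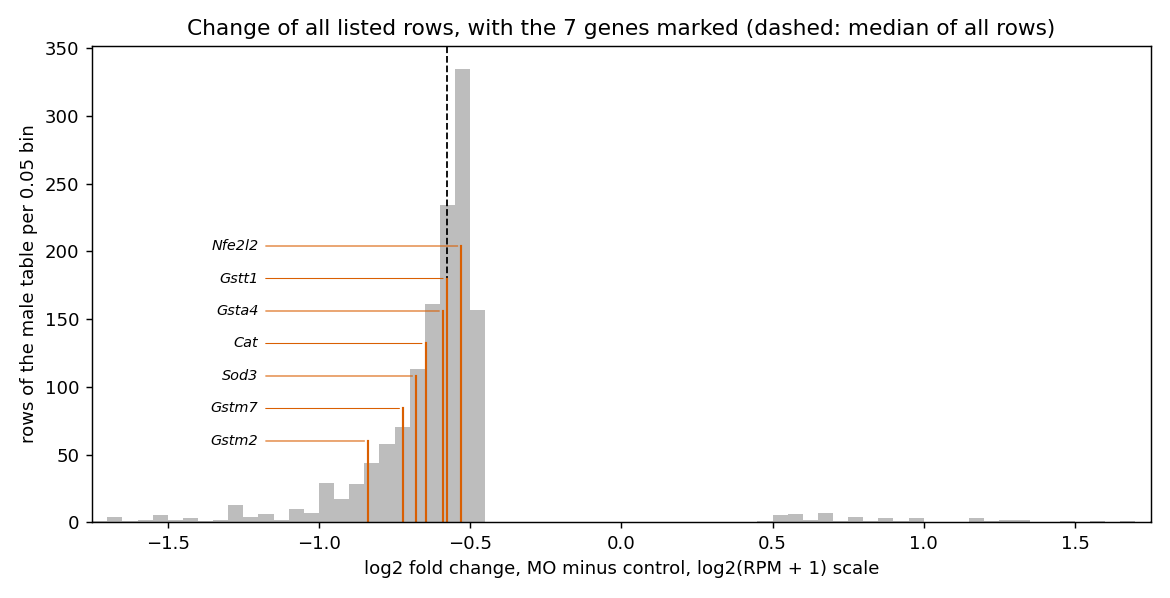
Number of rows of the male table (vertical axis) by log2 fold change of MO against control males in steps of 0.05 (horizontal axis; 11 rows beyond 1.75 in size are not drawn), with the 7 genes marked in orange and the median of all rows dashed. The empty middle shows that no row under 0.48 in size was listed, and 5 of the 7 genes lie to the left of the median.

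Ratios between the genes within a library take out its scaling, apart from the pseudocount of 1 that bears on low genes such as Sod3, and 21 pairs were compared. The largest change was that of Nfe2l2 over Gstm2. Its log2 ratio went from -2.50 ± 0.33 (SD, n = 6) to -2.20 ± 0.42 (SD, n = 5), a change of 0.31 (exact permutation p = 0.18, adjusted over the 21 pairs 0.93). No pair had an unadjusted exact permutation p under 0.05, and the smallest that 6 against 5 animals allow is 0.0043. No difference in response between any of the 7 genes was therefore detected, which does not show that they changed alike. The change of Cat over Sod3 was 0.03, where a pseudocount of 0.1 gave the genes themselves -0.65 and -0.71, and that of Gsta4 over Gstt1 -0.01.

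Among animals of the same group the 7 genes mostly rose and fell together before centring, and less so after it. Likeness was measured as Pearson's r of the deviations from the group mean over the 11 animals, as a description without a test, and animals share their library scaling. On log2(RPM + 1), 19 of 21 pairs had a positive r, with a median of 0.41. Control male 6, whose library had the highest median, was the highest control for 6 of the 7 genes, and MO male 4, the highest of the MO libraries, led its group for 5. After centring 13 of 21 pairs were positive, with a median of 0.13. Cat, Gsta4 and Gstm7 then stayed together, with r of 0.60 to 0.73 between them. Nfe2l2 had a negative r with Gsta4 (-0.58), Gstm7 (-0.49) and Sod3 (-0.44), and a positive one with Gstt1 (0.54).

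**Figure D5:**
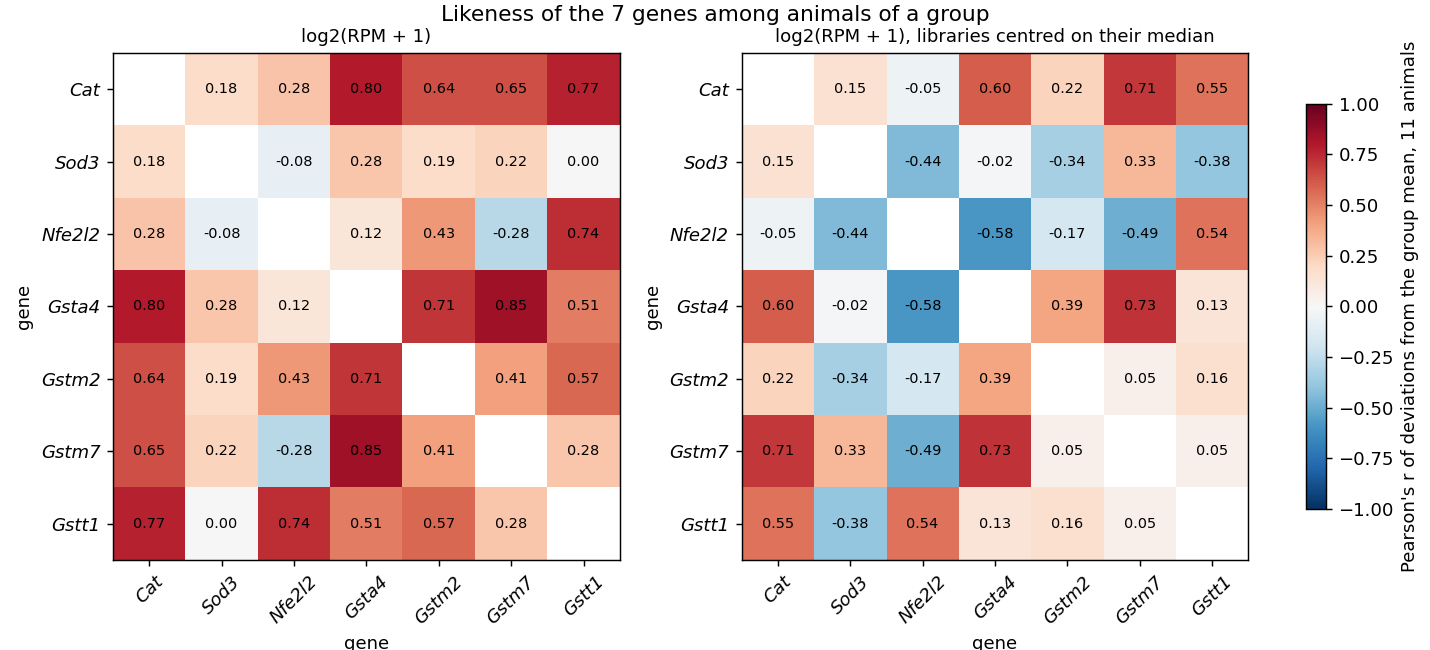
Pearson's r (colour and number) between the 7 genes across 11 animals, of deviations from the group mean, on log2(RPM + 1) at the left and after centring each library on its median at the right. Cat, Gsta4 and Gstm7 are alike in both panels, and the values of Nfe2l2 with Gsta4, Gstm7 and Sod3 are below 0 at the right.

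The listed genes most like each member were picked by their r, as a description without a test. Over the same 11 centred libraries the closest to Cat was Otc, the urea cycle enzyme ornithine carbamoyltransferase (r = 0.92), followed by RGD1564865 (0.90). Nfe2l2 was closest to Oaz2, an antizyme of ornithine decarboxylase (0.91), and Sumf2 (0.86), and Gsta4 to the kinesin Kifc2 and the amidase Nit2 (both 0.90). For Gstm7 these were the homeobox gene Meis3 (0.89) and the mitochondrial hydratase Echs1 (0.87), and for Sod3 the aldo-keto reductase Akr1c12l1 (0.87) and the ubiquitin peptidase Usp49 (0.81). Gstt1 was closest to Frs3 (0.82) and Ccs, the copper chaperone of the cytosolic superoxide dismutase (0.81), and Gstm2 had the weakest partners, Phf11 (0.77) and Zfp414 (0.74). Each is the highest or next highest of 1327 values, from few animals, so these r cannot be set against those between the members.

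The wider pathway was read from 7 lists of 188 genes in all, of which 29 had a row in the male table. Besides the 7 genes described above these were 22 genes, 21 lower and 1 higher, or 95.5% lower beside 96.5% of all rows. Their median change was -0.67, and 14 of the 22 lay below the median of the table. Genes without a row were not analysed here.

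Of 28 glutathione transferase genes 7 had a row and all were lower. Beyond the members and Gstm6 these were Gstz1, the maleylacetoacetate isomerase of tyrosine breakdown (-0.50 ± 0.18, SE), and Gsta6, listed under LOC501110 (-0.51 ± 0.20, SE). Of 22 genes for the removal of superoxide and peroxides 4 had a row. Ccs was at -0.53 ± 0.18 (SE) and the lactonase Pon3 at -0.53 ± 0.17 (SE). Of 20 thioredoxin, glutaredoxin and methionine sulfoxide reductase genes 1 had a row, Msrb2 (-0.67 ± 0.16, SE). Of 20 genes for NRF2 and its regulators Nfe2l2 alone had a row, so Keap1 and the small Maf genes were not analysed here.

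Among 30 genes known as NRF2 targets or close to them 5 had a row, all lower. The quinone reductase Nqo2 was at -0.68 ± 0.18 (SE), the biliverdin reductase Blvra at -0.59 ± 0.19 (SE) and the ferritin heavy chain Fth1 at -0.58 ± 0.19 (SE). Park7 was at -0.90 ± 0.26 (SE).

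Glutathione synthesis and recycling had 2 rows of 20 genes, both of the path from homocysteine to cysteine. Cth, which releases cysteine, averaged 987 ± 179 RPM (SD, n = 6) in control and 324.9 ± 59.3 RPM (SD, n = 5) in MO males, a log2 change of -1.60 (SE 0.19), and Cbs was at -0.66 ± 0.18 (SE). After centring Cth still passed (-1.02; limma adjusted p = 0.0042) and Cbs did not (-0.08).

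Catalase works in the peroxisome, and 9 of 48 peroxisomal genes had a row. Ehhadh, the bifunctional enzyme of peroxisomal beta-oxidation, was higher (0.87 ± 0.22, SE). Acox2, the branched-chain oxidase that forms hydrogen peroxide, was at -1.27 ± 0.21 (SE), the glyoxylate aminotransferase Agxt at -1.26 ± 0.24 (SE) and the carnitine octanoyltransferase Crot at -0.99 ± 0.26 (SE). Pex11g, of peroxisome division, was at -0.77 ± 0.18 (SE), Scp2 at -0.67 ± 0.18 (SE), Pex2 at -0.52 ± 0.17 (SE) and the row listed as Paox at -0.48 ± 0.20 (SE). After centring Ehhadh (1.46) and Acox2 (-0.69) passed, and with Cth they were 3 of the 22 genes, beside 5.27% of all rows that passed in either direction (72 of 1365). Cat was at -0.06 on that scale, and differences between these genes were not tested.

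In the table of females 1 of the 188 genes had a row, Selenop, the selenium carrier of plasma, listed as Sepp1. It was at 58.3 ± 24.8 RPM (SD, n = 6) in control and 106 ± 39.8 RPM (SD, n = 5) in MO females, a log2 difference of 0.88 for which no test was made.

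Of 63 markers of other liver cell types 8 had a row in the male table. All 8 were lower, beside 96.5% of all rows, with log2 changes of -0.48 to -0.72, and after centring they lay between -0.13 and 0.10. The summed level of the stellate cell and smooth muscle markers (3 of 12: Pdgfrb, Des and Reln) was 42.6 to 55.5 RPM in control and 29.0 to 34.3 RPM in MO males. That of the endothelial markers (2 of 12: Eng and Vwf) was 81.8 to 147.9 and 52.4 to 78.7 RPM. Of the bile duct markers, Krt19 was at -0.60 ± 0.18 (SE) and Epcam at -0.64 ± 0.20 (SE). None of the macrophage, lymphocyte, neutrophil or erythroid markers had a row, so these were not analysed here. The part of other cell types in the lower levels of the 7 genes, Sod3 among them, was not tested.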

How the data were processed

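Liver RNA was sequenced from 1 library per animal (TruSeq RNA kit, per the labels' protocols). Per the submitters' processing notes STAR 2.3.1j, Partek and rn5 were used, with no roles stated. How reads were counted is not given in the sources used here, and neither is the treatment of reads that match several genes. Values deposited by the authors are RPM, reads per gene for a fixed total per library, with 1 added, as read from the values, since the file headers name no unit. Folds in the authors' table are sizes of log2 differences, recovered for 1365 of 1365 male rows. Their deposited p-values are unadjusted, and in males all under 0.05.

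After 1 was subtracted, log2(RPM + 1), a pseudocount of 1, was fitted for 6 control and 5 MO males over all 1365 rows with limma 3.58.1 (R 4.3.3, intensity trend, no low-value filter). Benjamini-Hochberg adjustment ran over the table, at a threshold of 0.05. The fit was tested on simulated data. Because rows had been selected on the same contrast, these adjusted p-values are no false discovery rate, and the fitted spread is too small. Fold changes are on the log2(RPM + 1) scale, which understates those of low genes. Ratios were tested by exact permutation (scipy 1.17.1). The worth of 1 read per library was first read from the steps between low values (under 9 RPM) and then refined on higher values. Of the low values 82.8% to 87.8% were whole within 0.05 of a read. Too few were whole to recover counts, so no count test was run. Of the rows 18 repeat an accession.

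Named genes are the members, the 2 genes most like each (mean of at least 1 RPM) and all listed pathway genes, apart from a few items that are not reported here. The members and lists were chosen with earlier results of these data known. Alternatives were another scaling, pseudocounts of 0.1 and 5 RPM, a filter at 1 RPM, each library left out, a replicate block, limma without trend, 1 row per gene and exact permutation. Subsets of controls and the sum of Gstm2 and Gstm7 were added after the data had been seen, as were the ratios of gene pairs.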

Additional observations from a re-analysis of the deposited data

How the results depend on the processing

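Scaling decided the calls. With each library centred on its median 72 rows passed in place of 1365, 24 of them lower in place of 1317, and 0 of the 7 genes in place of 7. The changes were then -0.063 (Cat), -0.094 (Sod3), 0.056 (Nfe2l2), -0.0053 (Gsta4), -0.25 (Gstm2), -0.14 (Gstm7) and 0.0071 (Gstt1). With control males 1 and 5 as the only controls 531 rows passed, 493 of them lower, and 4 of the 7 genes. Nfe2l2 (-0.24), Gsta4 (-0.56) and Gstt1 (-0.25) did not. Centred and against these 2 controls 61 rows passed, 19 lower and 0 of the 7, with -0.11 (Cat), -0.32 (Sod3), 0.28 (Nfe2l2), -0.045 (Gsta4), -0.38 (Gstm2), -0.20 (Gstm7) and 0.27 (Gstt1). Centred and against the other 4 controls 66 passed, 20 lower and 0 of the 7, with -0.041 (Cat), 0.021 (Sod3), -0.054 (Nfe2l2), 0.015 (Gsta4), -0.19 (Gstm2), -0.11 (Gstm7) and -0.12 (Gstt1). Why the calls differed between the sets of controls, their smaller number included, was not tested. Leaving out 1 library at a time left 1282 to 1364 rows and 7 of 7 genes past the threshold, with Gstm2 between -1.01 and -0.71 and Nfe2l2 between -0.64 and -0.44. The number of the 7 genes below the median change, 5, was 4 to 6 in those fits, 4 with a pseudocount of 0.1 and 7 with a pseudocount of 5. The pseudocounts, the filter, limma without trend, 1 row per gene, exact permutation and the sum of Gstm2 and Gstm7 changed no call of the 7 genes.

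The replicate numbers do not show a pairing, since same-numbered animals correlated at -0.10 to 0.15 in their deviations from the group means. With the replicate number as a block 1344 rows passed, 1296 lower, and 7 of the 7 genes, with Gstm2 at -0.74 and Nfe2l2 at -0.46. At 125 to 265 reads per library Sod3 has the largest counting error of the 7 genes.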
